A study of Mus musculus with 22 samples.

Results

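The endoderm transcription factors described here are 6 genes, Sox17, Sox7, Foxa1, Foxa2, Foxa3 and Hnf4a, taken by gene symbol from the tables of all 3 deposited comparisons, which list 20206 genes between them. The study made osteoblasts from pluripotent mouse cells with the Col2.3GFP transgene, whose collagen I promoter fragment switches on a green fluorescent protein (GFP) as cells turn into osteoblasts. All groups used here come from 1 embryonic stem cell (ESC) line or 1 induced pluripotent stem cell (iPSC) line with this reporter, so each line stands for itself. The differentiated cultures were sorted ESC-OB GFP+ (GFP-positive cells sorted from ESC cultures after 35 to 40 days of differentiation, 3 samples), ESC-OB (the unsorted ESC cultures of the same age, 3 samples) and iPSC-OB (unsorted iPSC cultures after 35 to 40 days, 2 samples). They were set against undifferentiated ESC (day 0, passages 20 to 30, 3 samples) and undifferentiated iPSC (day 0, passages 10 to 20, 2 samples by the labels). Differentiation went through embryoid bodies for 6 days, with 0.1 µM retinoic acid present between days 3 and 5, and then through osteogenic medium. Calvarial osteoblasts and sorted bone cells of the study were not analysed here.

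The endoderm gives rise to the gut, liver, pancreas and lungs, and an earlier extraembryonic endoderm lines the yolk sac. Sox17 and Sox7 are related SOXF factors that act in extraembryonic endoderm and in endothelium, and Sox17 also in definitive endoderm. The Foxa factors are forkhead proteins that open chromatin in foregut, liver and lung, and Hnf4a is a nuclear receptor that runs hepatocyte, gut and visceral endoderm programmes. A pluripotent culture pushed towards bone can hold cells of several germ layers. In RNA from whole cultures or sorted pools, fewer cells of a type and less RNA per cell cannot be told apart.

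The tables hold no value of a single sample, but their base means, the mean normalised read count over all libraries of a fit, are printed to 15 significant digits. From these the value of 1 read in each library was worked out, and with it the depth. In units of 1000000 reads, the libraries had depths of 22.4 to 30.1 in sorted ESC-OB GFP+, 6.72 to 11.5 in ESC-OB, 4.49 to 19.5 in ESC, 10.1 to 17.7 in iPSC-OB and 10.4 to 13.0 in iPSC. The iPSC side of the authors' fit held 3 libraries, against 2 iPSC samples in the labels, and no library could be tied to a labelled replicate, so libraries are numbered within a group from the deepest. All 9 pluripotency markers were called, with negative fold changes, in each of the 3 comparisons. The direction of the tables was read from these markers, so their being lower in differentiated cells is no separate result. Of 12 osteoblast markers, 10 were called higher and 1 lower in sorted ESC-OB GFP+ (39.1% and 32.4% of all genes were), 8 and 2 in ESC-OB (38.6% and 31.0%) and 8 and 1 in iPSC-OB (26.1% and 23.1%). The markers called lower were Alpl, the bone alkaline phosphatase that pluripotent cells also make, at -3.02 ± 0.69, -4.93 ± 0.69 and -3.35 ± 0.61, and Spp1, osteopontin, at -1.61 ± 0.31 in ESC-OB, in the authors' deposited tables. In the same order of comparisons, Col1a2, a collagen I chain, rose by 12.58 ± 0.49, 11.73 ± 0.49 and 1.89 ± 0.49 in the authors' deposited tables. Pth1r, the parathyroid hormone receptor, rose by 9.25 ± 0.44, 8.54 ± 0.44 and 5.47 ± 0.47 there. Reads per library could be recovered for 5 of these markers in iPSC-OB, given here as CPM (reads per 1000000 reads of the library). Highly expressed markers were left out of this recovery, such as Sparc, estimated at 9610 CPM in iPSC-OB. Runx2, the osteoblast master regulator, had 18.3 and 13.9 CPM in libraries 1 and 2. Of the others, Dmp1 had 6.01 and 0 CPM, Phex 2.98 and 0.209 CPM, Bglap, osteocalcin, 2.44 and 0.104 CPM, and Sp7, osterix, 1.19 and 0 CPM. In iPSC libraries 1, 2 and 3, Runx2 had 3.48, 2.15 and 2.32 CPM, and Dmp1 0.162, 0.0898 and 0.101 CPM. Phex had 0.323, 0.359 and 0.505 CPM there, Bglap 0, 0.0898 and 0.101 CPM, and Sp7 0.566, 0.449 and 0.908 CPM. For Dmp1, Phex and Sp7, iPSC-OB library 2 thus lay below all 3 iPSC libraries.

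The endoderm factors were higher in the differentiated cultures, with 1 exception. At an adjusted p below 0.05, 5 of the 6 were called higher in sorted ESC-OB GFP+ against ESC, where 39.1% of all tested genes were called higher and 71.5% in either direction. In ESC-OB against ESC 5 of 6 were called higher, beside 38.6% of all genes (69.6% in either direction), and in iPSC-OB against iPSC all 6, beside 26.1% (49.2% in either direction). None was called lower, beside 32.4%, 31.0% and 23.1% of all genes in the same order of comparisons. The exception was Foxa3, which missed the threshold in both ESC comparisons. The median log2 fold change of the 6 was 5.11 in the sorted cells, 5.22 in ESC-OB and 4.11 in iPSC-OB, against 0.28, 0.26 and 0.15 for all tested genes. The ESC comparisons share their ESC libraries, so their likeness carries no separate weight.

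**Figure D1:**
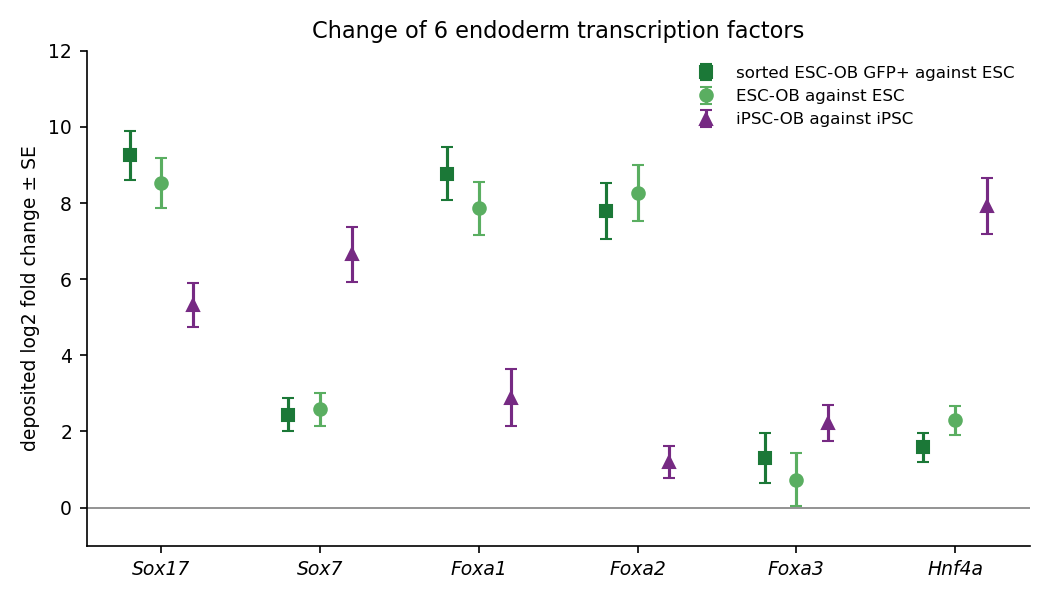
Deposited log2 fold change (y axis) with its standard error for each of the 6 factors, in sorted ESC-OB GFP+ against ESC (squares), ESC-OB against ESC (circles) and iPSC-OB against iPSC (triangles). Sox17, Foxa1 and Foxa2 stand higher in the ESC comparisons, and Sox7 and Hnf4a in the iPSC comparison.

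Sox17, the SOXF factor of definitive and extraembryonic endoderm, had 54.7 and 177 CPM in iPSC-OB libraries 1 and 2 (919 and 1701 reads), against 3.80, 1.80 and 1.41 CPM in iPSC libraries 1, 2 and 3 (47, 20 and 14 reads). These reads are 1 of 13 possible sets, picked as the only set near the deposited fold change. In it both iPSC-OB libraries lay far above all 3 iPSC libraries, and library 2 was 3.24 times library 1. The means were 116 ± 86.7 CPM in iPSC-OB (SD, n = 2) and 2.34 ± 1.28 CPM in iPSC (SD, n = 3). The log2 ratio of these means was 5.63, and it was 4.55 without iPSC-OB library 2 and 6.25 without iPSC-OB library 1. In the authors' deposited table, Sox17 rose by 5.33 ± 0.58 (log2, SE) in iPSC-OB (DESeq2 adjusted p = 1.19e-18). For the ESC groups no values per library were recovered, and the level of each group was estimated from the base mean and the fold changes, so it carries no spread over libraries. In iPSC, where both could be had, such estimates lay above the recovered means for all 6 factors. They ran from 17.5 against 17.2 CPM for Foxa2 to 0.168 against 0.0875 CPM for Hnf4a, so low ESC levels may be overestimated. Sox17 was estimated at 147 CPM in sorted ESC-OB GFP+ and 88.7 CPM in ESC-OB, against 0.241 CPM in ESC, a level worth about 6.7 reads over the 3 ESC libraries together. The authors' deposited table gave a rise of 9.25 ± 0.65 in the sorted cells (adjusted p = 4.45e-45) and of 8.52 ± 0.65 in ESC-OB (adjusted p = 3e-38). Sox17 was thus near the limit of detection in ESC and clearly present in iPSC, while the 3 differentiated groups lay close together.

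Sox7, its relative in extraembryonic endoderm and endothelium, had 18.4 and 112 CPM in iPSC-OB libraries 1 and 2 (309 and 1075 reads), against 0.404, 0.359 and 0.505 CPM in the 3 iPSC libraries (5, 4 and 5 reads). The groups did not overlap, but library 2 was 6.09 times library 1, and the SD was as large as the mean, at 65.2 ± 66.2 CPM in iPSC-OB (SD, n = 2). The iPSC mean was 0.423 ± 0.0746 CPM (SD, n = 3). The log2 ratio of means was 7.27, and it was 5.44 without iPSC-OB library 2 and 8.05 without iPSC-OB library 1. The authors' deposited table gave a rise of 6.65 ± 0.72 (adjusted p = 5.32e-19). In the ESC line the starting level was higher. Sox7 was estimated at 27.1 CPM in sorted ESC-OB GFP+ and 29.9 CPM in ESC-OB, against 5.01 CPM in ESC, and the authors' deposited table gave rises of 2.44 ± 0.44 (adjusted p = 6.52e-08) and 2.58 ± 0.44 (adjusted p = 1.3e-08).

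**Figure D2:**
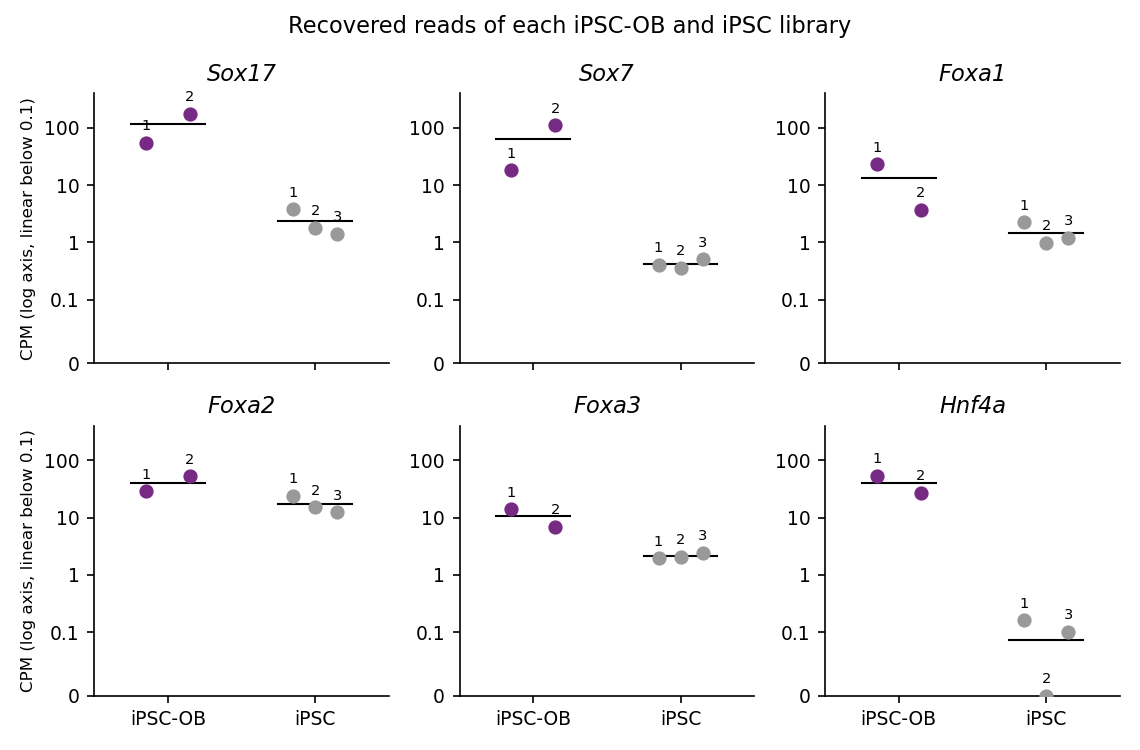
Reads recovered for each library of the iPSC fit, as CPM on a log axis that is linear below 0.1, with iPSC-OB on the left and iPSC on the right of each panel; numbers name the libraries and bars are group means. For each of the 6 factors both iPSC-OB libraries lie above all 3 iPSC libraries, and Sox7 and Foxa1 differ most between the 2 iPSC-OB libraries.

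Foxa1, the forkhead factor of foregut, lung and hormone-responsive epithelia, had 23.1 and 3.75 CPM in iPSC-OB libraries 1 and 2 (388 and 36 reads), against 2.26, 0.987 and 1.21 CPM in the 3 iPSC libraries (28, 11 and 12 reads). Here library 1 was the high one, by 6.15 times, and library 2 lay just above the highest iPSC library. The means were 13.4 ± 13.7 CPM in iPSC-OB (SD, n = 2) and 1.49 ± 0.681 CPM in iPSC (SD, n = 3). The log2 ratio of means was 3.17, and it was 1.34 without iPSC-OB library 1, 3.96 without iPSC-OB library 2. In the authors' deposited table, Foxa1 rose by 2.89 ± 0.75 in iPSC-OB (adjusted p = 0.00039). In the ESC line it was estimated at 66.1 CPM in sorted ESC-OB GFP+ and 35.1 CPM in ESC-OB, against 0.151 CPM in ESC, which equals about 4.2 reads over the ESC group. The authors' deposited table gave rises of 8.77 ± 0.69 in the sorted cells (adjusted p = 1.02e-35) and of 7.86 ± 0.70 in ESC-OB (adjusted p = 1.02e-28).

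The Foxa1 promoter is shown because the letters of a forkhead motif, the motif of the Foxa proteins themselves, lie in it. The window runs from 250 bases before to 50 bases after the gene's start in RefSeq, chr12:57546062-57546361 on the minus strand of GRCm38.p6, a build other than the mm9 named in the submitters' processing notes. Capitals mark the motif, TGTTTAC, which is read here on the opposite strand, with its first printed base at position -141 from the start.
Foxa1 promoter: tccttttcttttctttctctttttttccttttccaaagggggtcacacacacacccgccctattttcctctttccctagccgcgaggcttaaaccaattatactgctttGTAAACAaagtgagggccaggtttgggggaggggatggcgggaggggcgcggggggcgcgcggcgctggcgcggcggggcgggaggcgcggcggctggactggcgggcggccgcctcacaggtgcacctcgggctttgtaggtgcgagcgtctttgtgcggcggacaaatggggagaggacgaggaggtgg
On either strand, the motif was found in 3.65% of 32851 RefSeq mouse promoters of this length. The match describes letters only, and no binding was measured.

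Foxa2, which patterns definitive endoderm and also marks node, notochord and floor plate, had 28.8 and 52.4 CPM in iPSC-OB libraries 1 and 2 (483 and 503 reads), against 24.1, 15.2 and 12.3 CPM in the 3 iPSC libraries (298, 169 and 122 reads). These reads are 1 of 2 possible sets, picked as the only set near the deposited fold change. In it the groups did not overlap, though iPSC-OB library 1 lay only a little above iPSC library 1. The means were 40.6 ± 16.7 CPM in iPSC-OB (SD, n = 2) and 17.2 ± 6.14 CPM in iPSC (SD, n = 3), a log2 ratio of 1.24. The authors' deposited table gave a rise of 1.20 ± 0.42 (adjusted p = 0.0112), which does not pass a threshold of 0.01. Foxa2 was the factor with most RNA in undifferentiated iPSC relative to undifferentiated ESC. In the ESC line it was estimated at 33.6 CPM in sorted ESC-OB GFP+ and 46.4 CPM in ESC-OB, against 0.152 CPM in ESC, which equals about 4.2 reads over the ESC group. The authors' deposited table gave rises of 7.79 ± 0.73 in the sorted cells (adjusted p = 5.63e-26) and of 8.26 ± 0.73 in ESC-OB (adjusted p = 7.54e-29).

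Foxa3, the third Foxa factor, found mainly in liver and gut, had 14.1 and 6.88 CPM in iPSC-OB libraries 1 and 2 (237 and 66 reads), against 1.94, 2.06 and 2.42 CPM in the 3 iPSC libraries (24, 23 and 24 reads). The iPSC libraries were nearly equal, both iPSC-OB libraries lay above them, and library 1 was 2.05 times library 2. The means were 10.5 ± 5.11 CPM in iPSC-OB (SD, n = 2) and 2.14 ± 0.251 CPM in iPSC (SD, n = 3). Their log2 ratio was 2.29, or 1.68 without iPSC-OB library 1. The authors' deposited table gave a rise of 2.22 ± 0.48 in iPSC-OB (adjusted p = 2.07e-05). In the ESC line Foxa3 stayed low in every group, at an estimated 1.74 CPM in sorted ESC-OB GFP+ and 1.16 CPM in ESC-OB, against 0.699 CPM in ESC. The authors' deposited table gave 1.31 ± 0.66 in the sorted cells (adjusted p = 0.0646) and 0.73 ± 0.70 in ESC-OB (adjusted p = 0.351), both short of the threshold.

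Hnf4a, the nuclear receptor of visceral endoderm and hepatocytes, had 53.9 and 27.3 CPM in iPSC-OB libraries 1 and 2 (905 and 262 reads), against 0.162, 0 and 0.101 CPM in the 3 iPSC libraries (2, 0 and 1 reads). It was all but undetected in iPSC and present in both iPSC-OB libraries, where library 1 was 1.97 times library 2. The means were 40.6 ± 18.8 CPM in iPSC-OB (SD, n = 2) and 0.0875 ± 0.0816 CPM in iPSC (SD, n = 3). Over all libraries, 1167 iPSC-OB reads stood against 3 iPSC reads, a ratio of 493 after division by depth with a 95% counting interval of 168 to 2390. The log2 ratio of means was 8.86, and with so few iPSC reads it was 9.65 without iPSC library 1 and 8.27 without iPSC library 2. The authors' deposited table gave a rise of 7.92 ± 0.73 (adjusted p = 8.51e-26). In the ESC line Hnf4a was already detected at the start. It was estimated at 5.77 CPM in sorted ESC-OB GFP+ and 9.49 CPM in ESC-OB, against 1.93 CPM in ESC, and the authors' deposited table gave rises of 1.58 ± 0.37 (adjusted p = 3.73e-05) and 2.29 ± 0.37 (adjusted p = 2.38e-09).

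The upstream of the Hnf4a promoters in the RefSeq table is shown because it holds the letters of a motif of another group of endoderm regulators. The window is chr2:163506607-163506906 on the plus strand of GRCm38.p6. Capitals mark AGATAA, the motif of Gata4 and its relatives, from position -52.
Hnf4a upstream promoter: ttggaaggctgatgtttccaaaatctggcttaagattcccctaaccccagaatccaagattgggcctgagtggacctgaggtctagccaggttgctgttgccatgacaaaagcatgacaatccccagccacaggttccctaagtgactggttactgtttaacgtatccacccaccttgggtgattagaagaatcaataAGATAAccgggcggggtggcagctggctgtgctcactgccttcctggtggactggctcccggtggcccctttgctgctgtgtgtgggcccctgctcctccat
On either strand, this motif was found in 11.2% of the 32851 promoters. RefSeq promoters were matched for 4 of the 6 factors, 7 in all, and AGATAA also lay in 1 of the 3 Foxa2 promoters, at position -183. CAAAGTCCA, an HNF4 motif, lay in none of the 7 and in 0.475% of all promoters. These matches describe letters only, and no binding was measured. Genes of the GATA family were measured as well, but a link between their RNA and these promoters was not tested. Gata6 and Gata4, zinc-finger factors of extraembryonic endoderm and heart, rose in ESC-OB by 8.80 ± 0.48 (adjusted p = 2.76e-74) and 6.27 ± 0.38 (adjusted p = 2.51e-59) and in iPSC-OB by 3.96 ± 0.53 (adjusted p = 1.46e-12) and 5.59 ± 0.43 (adjusted p = 1.29e-36), all in the authors' deposited tables.

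Across the 5 groups, the order of the levels differed between factors. The ESC and iPSC fits were normalised separately, so levels set across them are a description with no test, and levels are compared within a gene only, since CPM is not corrected for length. In undifferentiated cells, Foxa2 was at 17.2 CPM in iPSC and 0.152 CPM in ESC, a ratio of 113. Foxa1 stood at a ratio of 9.87 and Sox17 at 9.71 for iPSC over ESC, and Foxa3 at 3.06. Sox7 and Hnf4a went the other way, at ratios of 0.0844 and 0.0453. These ratios set recovered reads in iPSC against estimates in ESC, and with estimates on both sides they were 0.129 for Sox7 and 0.087 for Hnf4a, 11.9 for Sox17, 11.7 for Foxa1, 115 for Foxa2 and 3.19 for Foxa3. At the end of differentiation the lines lay closer for Sox17, Sox7, Foxa1, Foxa2 and Hnf4a, with iPSC-OB over ESC-OB ratios of 1.31, 2.18, 0.382, 0.875 and 4.28. Only Foxa3 of the 6 lay farther apart at the end, at 9.05. The SDs over the 2 iPSC-OB libraries are as large as the gaps to ESC-OB for Sox17, Sox7 and Foxa2.

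**Figure D3:**
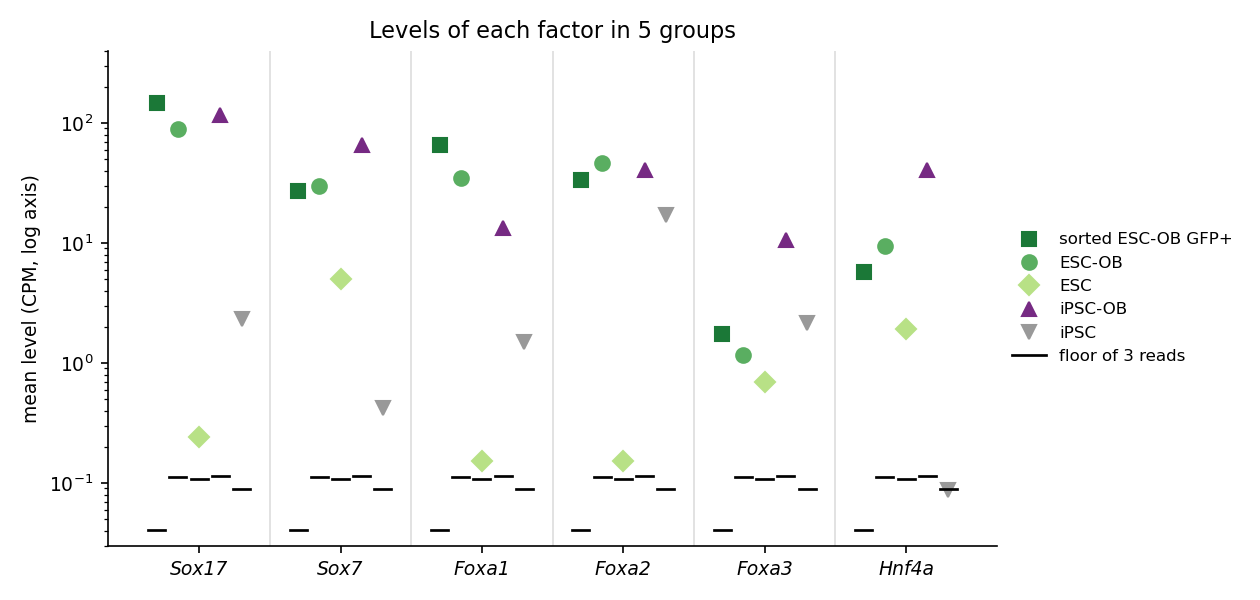
Mean level in CPM (log axis) of each factor in sorted ESC-OB GFP+, ESC-OB, ESC, iPSC-OB and iPSC, estimated from base means and fold changes for the ESC line and from recovered reads for the iPSC line; short black lines are the level of 3 reads over a group. Foxa1 and Foxa2 lie just above that line in ESC, and Hnf4a lies on it in iPSC.

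Whether the sort for GFP changed the factors was asked by the difference between the sorted and the unsorted ESC-OB changes. None of the 6 was called at an adjusted p below 0.05, beside 22.8% of all genes (Wald test on the difference of the deposited fold changes). With the shared ESC libraries taken as a covariance again none was called, beside 35.4% of all genes. Sox17 differed by 0.73 ± 0.92 (log2, SE; 95% interval -1.07 to 2.53; adjusted p = 0.733) and Foxa1 by 0.91 ± 0.98 (-1.01 to 2.84; adjusted p = 0.657). Foxa3 differed by 0.59 ± 0.96 (-1.29 to 2.47; adjusted p = 0.821) and Sox7 by -0.14 ± 0.62 (-1.36 to 1.07; adjusted p = 0.946). Foxa2 differed by -0.47 ± 1.03 (-2.48 to 1.55; adjusted p = 0.881), and Hnf4a by -0.72 ± 0.52 (-1.75 to 0.31; adjusted p = 0.41). These errors treat the comparisons as independent, although they share the ESC libraries. The covariance for that sharing was fixed at 0.5 of the product of the standard errors and was not estimated from the data. With it the intervals narrowed to -0.54 to 2.0 for Sox17, -1.0 to 0.72 for Sox7, -0.45 to 2.27 for Foxa1, -1.89 to 0.96 for Foxa2, -0.74 to 1.92 for Foxa3 and -1.44 to 0.01 for Hnf4a. A missed threshold does not show that sorted and unsorted cells were alike. RNA of all 5 factors called in the sorted comparison was present in GFP-sorted pools. Sums over marker lists also differed between the pools. The 20 epithelial genes summed to 6500 CPM in sorted ESC-OB GFP+ and 2970 CPM in ESC-OB, the 22 endothelial genes to 277 and 475 CPM, and the 18 primitive and extraembryonic endoderm genes to 16100 and 33700 CPM. Such sums rest on their highest genes, and Col4a1 alone made 7170 and 12500 CPM of the last. By the test of differences, 8, 0 and 0 genes of these lists were called higher in sorted cells and 0, 1 and 6 lower, beside 10.7% and 12.1% of all genes. The median differences were 0.89, -0.88 and -0.38. The part of these cell types in the factors' levels was not tested.

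The change on differentiation differed between the lines for 5 of the 6 factors, beside 28.2% of all genes, by the same kind of test on the iPSC-OB change minus the ESC-OB change. Hnf4a changed by 5.62 ± 0.82 more in the iPSC line (log2, SE; 95% interval 4.02 to 7.23; adjusted p = 2.26e-10), and Sox7 by 4.07 ± 0.84 more (2.42 to 5.72; adjusted p = 1.64e-05). These were 2 of 6 factors, beside 11.0% of all genes called in that direction. The difference was -7.05 ± 0.84 for Foxa2 (-8.70 to -5.40; adjusted p = 3.93e-15), -4.97 ± 1.02 for Foxa1 (-6.97 to -2.97; adjusted p = 1.37e-05) and -3.20 ± 0.87 for Sox17 (-4.90 to -1.49; adjusted p = 0.00166), so these 3 rose less in the iPSC line, beside 17.2% of all genes. Foxa3 was at 1.49 ± 0.85 (-0.17 to 3.16; adjusted p = 0.186) and was not called. These differences take in the starting levels, and for the 5 called factors the lines lay farther apart at the start than at the end. Foxa2 was at 17.2 CPM in iPSC and 0.152 CPM in ESC, but at 40.6 CPM in iPSC-OB and 46.4 CPM in ESC-OB. In ESC, Foxa2 and Foxa1 each rested on about 4.2 reads and Sox17 on about 6.7, and in iPSC Hnf4a rested on 3 reads. Line, passage and fit cannot be told apart in this design.

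The 2 iPSC-OB libraries did not hold the factors in 1 proportion. Sox17, Sox7 and Foxa2 were higher in library 2 and Foxa1, Foxa3 and Hnf4a in library 1. Of 298 genes drawn at random with base means of 50 to 100, the higher library stood at a median of 1.71 times the lower and an upper quartile of 3.2 times, and 10.1% stood above 6 times, as Sox7 and Foxa1 did. Only Foxa1 and Foxa3 had base means in that range, at 73.0 and 63.9. Sox17, Sox7, Foxa2 and Hnf4a lay above it, at 557, 307, 309 and 190, so the drawn genes are a background at a lower level for them. For all 6 factors both iPSC-OB libraries lay above all iPSC libraries, beside 41.9% of the drawn genes, with another 28.9% lying wholly below. The drawn genes had 1 possible set of reads each. For Sox17 and Foxa2 the set was picked by the deposited fold change, so their place above iPSC does not stand apart from it. Other lists are given for the genes whose reads could be recovered, which leaves out highly expressed genes. Of 19 liver and yolk sac protein genes, 17 were higher in library 1, and they summed to 375 CPM there and 113 CPM in library 2. Of 21 endothelial genes, 15 were higher in library 1, but the list summed to 139 CPM in library 1 and 357 CPM in library 2. Cdh5, the endothelial cadherin, stood at 20.4 and 114 CPM in libraries 1 and 2, while Tek, an endothelial receptor kinase chosen after its values were seen, stood at 26.8 and 103 CPM. Pecam1, the endothelial adhesion molecule, went the other way, at 8.57 and 2.19 CPM. The endothelial sum in library 2 rested mostly on its highest genes, Cdh5, Tek, Egfl7 and Esam, the last 2 named after their values were seen. That sum therefore does not speak for the endothelial list as a whole, most of which was lower in library 2. Epithelial genes were higher in library 1 in 10 of 11 cases and summed to 436 CPM there and 146 CPM in library 2, and other forkhead genes were higher in library 1 in 15 of 15. The part of endothelial, liver or epithelial cells in the factors' levels was not tested, and 2 libraries allow no test.

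**Figure D4:**
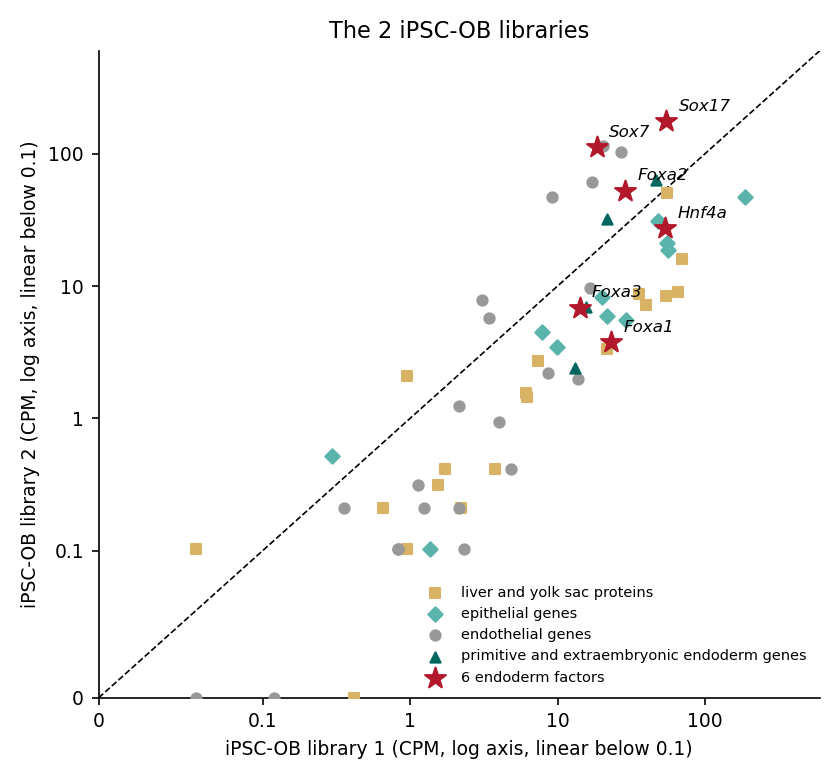
CPM in iPSC-OB library 2 (y axis) against iPSC-OB library 1 (x axis), both log and linear below 0.1, for the 6 factors (stars) and genes of 4 lists with recovered reads; the dashed line marks equal values. Sox17, Sox7 and Foxa2 lie above the line, and Foxa1, Foxa3 and Hnf4a below it; 17 of 19 liver and yolk sac protein genes and 15 of 21 endothelial genes lie below it too.

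Genes that act with the factors were counted list by list, beside the shares of all genes given above. Of 18 primitive and extraembryonic endoderm genes, 15 were called higher in sorted ESC-OB GFP+, 16 in ESC-OB and 18 in iPSC-OB, and none was called lower, with medians of 6.43, 6.54 and 5.00. Col4a1 and Col4a2, the basement-membrane collagen chains that parietal endoderm secretes and many other cells make, each rose by 9.62 in ESC-OB (SE 0.30 and 0.35) and by 7.09 ± 0.56 and 7.18 ± 0.58 in iPSC-OB in the authors' deposited tables. The inducers of mesendoderm and definitive endoderm went mostly the other way. Of 14 tested, 2 were called higher and 8 lower in sorted ESC-OB GFP+, and 4 higher and 9 lower in ESC-OB, while in iPSC-OB 4 were higher and 9 lower of 15. Tdgf1, a Nodal co-receptor also high in pluripotent cells, fell in ESC-OB (-11.72 ± 0.67) and in iPSC-OB (-8.93 ± 0.38) in the authors' deposited tables. Foxh1, a forkhead partner of Nodal signalling, fell in ESC-OB (-10.21 ± 1.35) and in iPSC-OB (-4.21 ± 0.71) in the authors' deposited tables. Several such inducers, chosen after their values were seen, had reads in every iPSC library. Mixl1, a primitive-streak homeodomain factor, had 0.238 and 0 CPM in the iPSC-OB libraries, against 30.4, 18.5 and 21.7 CPM in the iPSC libraries. Lhx1, a homeodomain factor of anterior endoderm and mesoderm, had 6.49 and 0.104 CPM in iPSC-OB, against 42.8, 25.5 and 27.6 CPM in iPSC. It was not called in any comparison of the authors' deposited tables. Its change was -2.37 ± 1.13 in iPSC-OB (DESeq2 adjusted p = 0.0697). In the ESC line the sign was positive, at 2.79 ± 1.77 in the sorted cells (adjusted p = 0.148) and 2.67 ± 1.79 in ESC-OB (adjusted p = 0.173).

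Liver and yolk sac proteins, known targets of Hnf4a and the Foxa factors among them, were called higher in 19 of 27 tested cases in sorted ESC-OB GFP+, 20 of 27 in ESC-OB and 23 of 26 in iPSC-OB, with 1, 1 and 0 lower. Ttr, the thyroxine carrier transthyretin, rose by 11.07 ± 1.08 in the sorted cells, 10.38 ± 1.08 in ESC-OB and 6.58 ± 1.19 in iPSC-OB in the authors' deposited tables. Alb, serum albumin, rose by 7.93 ± 1.23, 9.87 ± 1.23 and 5.83 ± 1.13 in the same comparisons of the authors' deposited tables. In iPSC-OB libraries 1 and 2 it was low, at 6.07 and 1.56 CPM, with 0 reads in all 3 iPSC libraries. Apom, a lipoprotein carried on HDL, was the gene called lower, at -5.92 ± 0.82 in the sorted cells and -4.58 ± 0.85 in ESC-OB, against a rise of 6.18 ± 0.81 in iPSC-OB, in the authors' deposited tables. Of the other hepatocyte regulators, 8 were higher and 3 lower of 16 in sorted ESC-OB GFP+, 10 and 3 of 16 in ESC-OB, and 6 and 1 of 12 in iPSC-OB. Nr5a2, a nuclear receptor of both liver and pluripotent cells, fell, at -9.33 ± 0.41, -7.12 ± 0.34 and -5.68 ± 0.35 in these comparisons of the authors' deposited tables. Of the lung, airway and gut regulators 12 were higher and 2 lower of 19 in the sorted cells, 14 and 3 of 19 in ESC-OB, and 10 and 4 of 19 in iPSC-OB. Sox9, which also drives cartilage, rose by 9.69 ± 0.93, 8.78 ± 0.93 and 2.17 ± 0.64 in the authors' deposited tables.

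Lists of tissues that share these factors were also counted. Epithelial genes were higher in 19, 18 and 9 of 20 cases and lower in 1, 1 and 4 in sorted ESC-OB GFP+, ESC-OB and iPSC-OB. Krt7 and Krt8, simple-epithelium keratins, rose by 9.91 ± 0.46 and 8.22 ± 0.19 in the sorted cells, and by 5.00 ± 0.55 and 1.92 ± 0.19 in iPSC-OB in the authors' deposited tables. Cdh1, the epithelial cadherin, was called lower in all 3 comparisons, at -0.68 ± 0.24 in the sorted cells, -1.23 ± 0.24 in ESC-OB and -2.10 ± 0.40 in iPSC-OB. Endothelial genes were higher in 11, 12 and 6 of 22 cases and lower in 6, 5 and 5. Cdh5 rose by 6.24 ± 0.83, 9.41 ± 0.83 and 6.43 ± 0.69 in the authors' deposited tables. Pecam1, which mouse pluripotent cells also make, fell, at -6.75 ± 0.37, -5.44 ± 0.37 and -2.56 ± 0.51 in the authors' deposited tables. Of 7 or 8 tested node, notochord and floor plate genes, where Foxa2 also acts, 4, 5 and 3 were higher and 2, 1 and 2 lower. The families of the factors were mixed. Other forkhead genes were higher in 16 of 23, 16 of 23 and 9 of 22 cases and lower in 6, 4 and 4. Other Sox genes were higher in 7 of 16, 9 of 16 and 5 of 17 cases and lower in 4, 5 and 4.

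**Figure D5:**
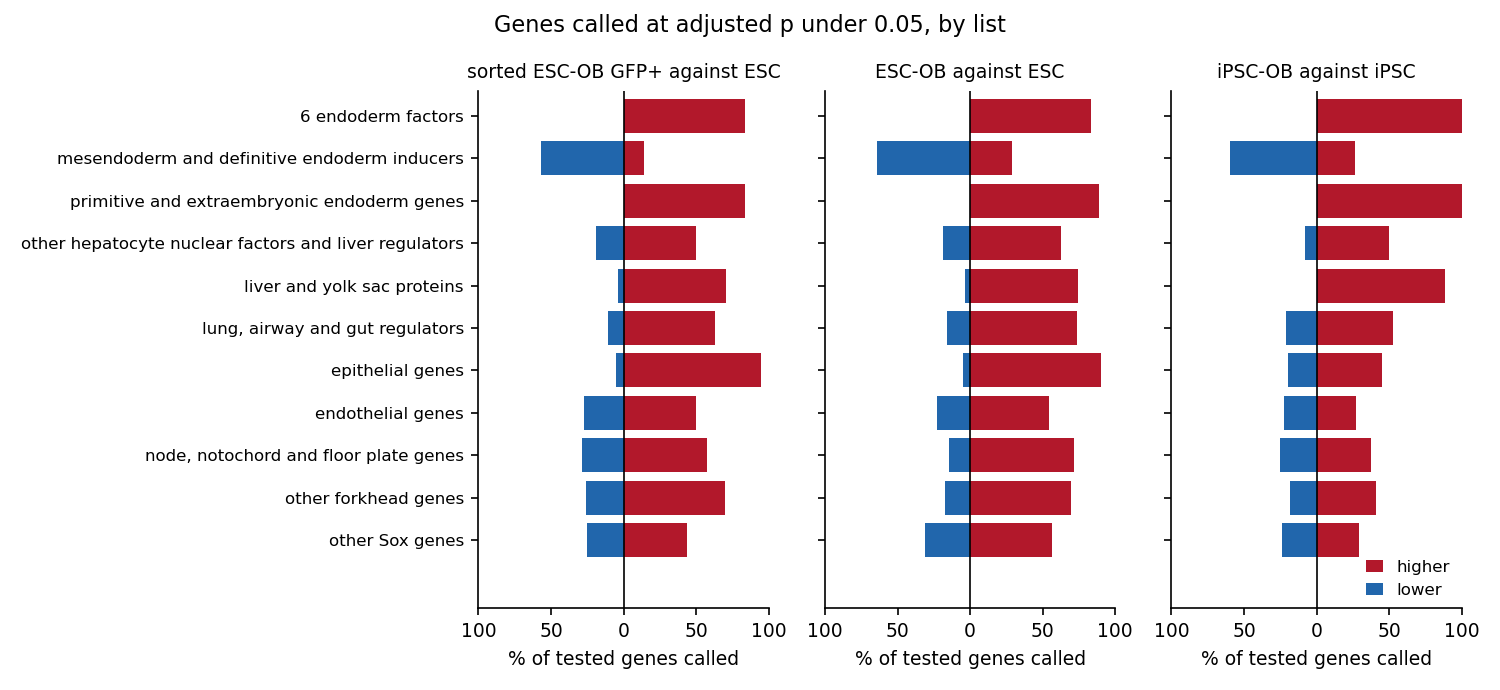
Share of tested genes of each list called higher (right, red) or lower (left, blue) at an adjusted p below 0.05 in each of the 3 comparisons. The 6 factors and the primitive and extraembryonic endoderm genes have no gene called lower, and the inducers of mesendoderm and definitive endoderm are mostly lower.

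The genes whose 3 deposited fold changes were most like those of each factor were taken by Euclidean distance on the log2 scale among 13760 genes with a base mean of at least 10 in both fits. For Sox17 the nearest was Pth1r, the parathyroid hormone receptor, listed here with the osteoblast markers, at a distance of 0.14. Then came Krt20 at 0.57 and Akr1c14 at 0.58. For Sox7 they were Tnni1 at 0.59, F2, the liver-made prothrombin, at 0.72 and Klb at 0.99. For Hnf4a they were Apob, the apolipoprotein of liver and yolk sac, at 1.11, then Tnni1 at 1.20 and Klb at 1.45, so that Sox7 and Hnf4a shared 2 neighbours. Hnf4a was the factor with the farthest neighbours. For Foxa2 the nearest were Dkk2 at 0.28, Mrc2 at 0.35 and Col25a1 at 0.39. For Foxa1 they were Zcchc5 at 0.37, 4930523C07Rik at 0.49 and Fzd1 at 0.54. For Foxa3 they were Ccdc122 at 0.17, Ltk at 0.19 and Commd3 at 0.27. Likeness over 3 comparisons is a description, and 2 of the comparisons share libraries.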

How the data were processed

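RNA sequencing of 22 samples in 8 groups was described by the labels, and 3 tables of the authors' own comparisons were used; they hold 0 columns for single samples. STAR 2.4.2a, DESeq2, R 3.2.2 and the genome build mm9 are named in the submitters' processing notes. A low-input library kit is named for scarce RNA in the labels' protocols, without saying for which samples. Per the file headers, the authors deposited for each gene a base mean (a signal, the mean normalised count), a log2 fold change, the log2 standard error of that change, the test's score, and the p-value with and without adjustment. The headers give no direction; a positive fold change was read as higher in the differentiated cells, since all 9 pluripotency markers are negative in each table. Calls use the authors' deposited DESeq2 adjusted p at a threshold of 0.05. Replicates may be separate cultures or technical, which the labels leave unsaid, so a p-value speaks only of the spread among these libraries, technical or not.

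The members and lists were chosen with earlier results of these data known. The ESC tables have identical base means and come from 1 fit. The value of 1 read in each library was solved from the base means by lattice reduction (Python 3.11.15, numpy 2.4.6, sympy 1.14.0) to within 1.2 times the rounding error of the 15th digit. All 200 genes checked in each fit had 1 solution, and 0% of deliberately shifted values had any. Reads per library were recovered for the 6 factors in the iPSC fit. Of these, 4 had 1 solution, while Foxa2 had 2 and Sox17 had 13, each with 1 within 1.5 SE of the deposited fold change. Of 300 genes drawn, 298 had 1 solution, and 99.3% of 297 with reads in both groups came within 1.5 SE of the deposited fold change (median difference 0.04). CPM totals leave out Rn45s, 5.02% of the total in the iPSC fit and 5.28% in the ESC fit. The floor of 3 reads over a group was 0.0406 CPM in sorted ESC-OB GFP+, 0.113 in ESC-OB, 0.108 in ESC, 0.114 in iPSC-OB and 0.0898 in iPSC; counting intervals and floors cover counting error only.

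Differences between deposited fold changes were tested by a Wald test (difference over the root of the summed squared errors, scipy 1.17.1) with Benjamini-Hochberg adjustment over 19739 genes (sorted minus unsorted) or 18597 genes (iPSC-OB minus ESC-OB). Scripts were tested on simulated data. Named genes are the 6 factors, the 2 largest rises and 2 largest falls of each list among called genes with a base mean of at least 10 in ESC-OB against ESC, and the 3 nearest genes of each factor; exceptions are named as such, and 1 gene that the rule names, with a motif searched for beside those given, is not reported here. Alternatives were a threshold of 0.01, re-centring on the median gene, a base mean of at least 10, no filter, the covariance of shared ESC libraries, other group totals, and leaving out each recovered library, the last chosen after seeing the data. Promoters are RefSeq's for GRCm38.p6.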

Additional observations from a re-analysis of the deposited data

Results flagged for a closer look

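The change on differentiation differed between the lines for 5 of the 6 factors, by a test of the difference itself (iPSC-OB change minus ESC-OB change, log2 ± SE). The difference was -3.20 ± 0.87 for Sox17 (adjusted p = 0.00166), 4.07 ± 0.84 for Sox7 (adjusted p = 1.64e-05) and -4.97 ± 1.02 for Foxa1 (adjusted p = 1.37e-05). For Foxa2 it was -7.05 ± 0.84 (adjusted p = 3.93e-15), and for Hnf4a 5.62 ± 0.82 (adjusted p = 2.26e-10). For these 5 factors the lines lay farther apart in level at the start than at the end of differentiation. The starting levels of Foxa2, Foxa1 and Sox17 in ESC and of Hnf4a in iPSC rested on few reads. Of all genes, 28.2% were called by this test, and no group had 4 or more libraries with recovered reads, so single libraries were not tested as standing apart.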

How the results depend on the processing

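The 21 alternative counts of members called equalled the main counts or lay within 1.5 times of them, as did 20 of 21 counts of genes called. The other count, of genes whose sorted and unsorted ESC-OB changes differ, was 6980 with the shared ESC libraries taken as a covariance, against 4502 without, since the covariance makes the errors smaller; 0 of the 6 factors were called either way. Re-centring took off 0.21 (sorted), 0.19 (ESC-OB) and 0.06 (iPSC-OB), the median log2 change of genes whose base mean reached 10, and moved no member's call. Of 126 alternative fold changes of members, 125 kept direction and call, and Foxa2 in iPSC-OB (1.20, adjusted p = 0.0112) missed a threshold of 0.01. All 42 alternative group levels moved by less than the error that the fold change's SE gives them. Leaving out 1 recovered library gave log2 ratios of 4.55 to 6.25 for Sox17, 5.44 to 8.05 for Sox7, 1.34 to 3.96 for Foxa1, 0.74 to 1.61 for Foxa2, 1.68 to 2.72 for Foxa3 and 8.27 to 9.65 for Hnf4a. No paired analysis was possible because the tables hold no columns for single samples, and for the same reason the deposited tests could not be refitted without a library. Foxa1 and Foxa2 in ESC, at about 4.2 reads over the group, and Hnf4a in iPSC, at 3 reads, are limited by depth.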
